A study of Mus musculus with 5 samples.

Results

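The regions described here are the distal chromatin sites that carried a peak of wild-type RNF12 and a peak of its catalytic mutant and no peak of REX1. They were chosen by measured values, the presence or absence of a called peak in 3 lists. An RNF12 WT peak on chromosomes 1 to 19 or X was taken where it overlapped a mutant peak by at least 1 bp, overlapped no REX1 peak, and had its summit more than 1 kb from every annotated transcription start site (TSS). Of 97272 RNF12 WT peaks on these chromosomes, 50344 (51.8%) overlapped a mutant peak, 19335 of those had no REX1 peak, and 11996 (12.3%) met the whole rule. Among the 59688 distal RNF12 WT peaks alone, 22901 (38.4%) overlapped a mutant peak. These shares follow from the rule and nothing is read from them.

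All libraries came from female 129/Sv-Cast/Ei mouse embryonic stem cells (mESCs), and the tagged protein was precipitated through V5. RNF12 WT and RNF12 H569A,C572A, a form with substitutions in the catalytic RING domain, were each expressed with a FLAG-V5 tag from the pCAG promoter in Rlim+/- mESCs kept under puromycin, so 1 endogenous Rlim allele remained beside the transgene in both lines. Both lines were treated with 15 µM of the proteasome inhibitor MG132 for 3 h before cross-linking with 2 mM disuccinimidyl glutarate for 45 min and 1% formaldehyde. The REX1 list came from WT mESCs with FLAG-V5-REX1 according to the labels, while the paper describes REX1 occupancy as earlier work, and no MG132 treatment is given for that library. Each list stands on 1 library, so no test between conditions was possible, and genotype, treatment and library cannot be told apart where REX1 is compared with RNF12.

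RNF12, also called RLIM, is a RING-type E3 ubiquitin ligase encoded on the X chromosome. Its best known substrate is REX1 (ZFP42), a zinc-finger protein of the YY1 family that it marks for degradation by the proteasome, and a RING mutant of this kind is used to separate binding from ubiquitylation. Distal regions hold enhancers, gene bodies and, in mouse, large numbers of interspersed and tandem repeats, in which the same letters recur at many places and short reads can fit more than 1 of them.

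Sequences are given first, because many sites share their letters with other places in the genome. Each line below gives an RNF12 WT summit with 50 bases to either side on the plus strand of GRCm38 (mm10). In the first 6, capitals mark the 32 bases at the summit, whose exact occurrences in the genome were counted. The first 3 are the best connected members of the sequence groups with the most sites, the next 3 are among the strongest sites of both RNF12 lists, and the last 2 are among the strongest sites whose summit occurs once in the genome and holds no soft-masked base. In the Pcsk1n sequence, capitals mark an E-box, CAGCTG, and the word GCAGCAGC on the other strand, both described further on, and the Cpeb3 sequence has none of the leading words.
Group 1, chr13:27983487-27983587: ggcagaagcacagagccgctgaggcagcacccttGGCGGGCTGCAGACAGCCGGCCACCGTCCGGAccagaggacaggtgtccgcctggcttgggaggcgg
Group 2, chrX:93518695-93518795, intron of Pola1: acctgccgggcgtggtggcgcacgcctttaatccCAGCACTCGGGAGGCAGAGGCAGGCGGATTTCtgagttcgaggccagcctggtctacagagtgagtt
Group 3, chr7:19867489-19867589: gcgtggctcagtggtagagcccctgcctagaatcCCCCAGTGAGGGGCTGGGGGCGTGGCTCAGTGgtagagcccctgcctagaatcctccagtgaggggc
Tprg, chr16:25190983-25191083, also group 1: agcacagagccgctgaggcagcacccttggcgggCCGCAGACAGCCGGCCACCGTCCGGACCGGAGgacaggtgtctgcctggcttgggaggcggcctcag
Lars2, chr9:123350931-123351031: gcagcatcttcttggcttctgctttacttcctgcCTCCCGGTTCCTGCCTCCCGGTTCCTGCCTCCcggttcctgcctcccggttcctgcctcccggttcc
Jazf1, chr6:52824403-52824503: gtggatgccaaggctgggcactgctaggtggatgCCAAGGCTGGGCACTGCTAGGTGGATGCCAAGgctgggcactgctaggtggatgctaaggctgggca
Pcsk1n, chrX:7922207-7922307: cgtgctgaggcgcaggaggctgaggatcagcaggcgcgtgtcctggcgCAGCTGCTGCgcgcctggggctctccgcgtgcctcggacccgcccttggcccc
Cpeb3, chr19:37196983-37197083: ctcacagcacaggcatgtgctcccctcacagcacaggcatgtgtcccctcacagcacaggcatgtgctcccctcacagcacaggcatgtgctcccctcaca
The marked bases occurred 25 times in the genome for group 1, 6765 times for group 2, 538 times for group 3, 2 times at Tprg, 26 times at Lars2 and 8 times at Jazf1. The Lars2, Jazf1 and Cpeb3 windows each repeat a short unit head to tail, and the letters of group 2 are those of a B1 short interspersed element.

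The 11996 sites lay mostly away from exons. Between annotated genes lay 5627 summits (46.9%, 95% Wilson interval 46.0% to 47.8%), in introns 3937 (32.8%, 32% to 33.7%) and in exons 2432 (20.3%, 19.6% to 21%). The intervals here and below cover counting error only. Of the 10905 distal RNF12 WT peaks in all 3 lists, 50.2% were intergenic and 20.3% exonic, and of the 30659 distal peaks in the RNF12 WT list alone, 31.9% were intergenic and 20.6% exonic. The exonic share was thus alike in the 3 sets, and the division between introns and intergenic DNA was not.

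The summit sequence of many sites occurred at several places in the genome. The 32 bases at the summit were found once for 6085 sites (50.7%) and more than once for 5911 (49.3%, 48.4% to 50.2%), with 22.0% (21.3% to 22.7%) over 100 times. The share found more than once depended on the limits of the rule. It was 79.3% of sites among the 20000 strongest peaks of each list, a limit that shortens the REX1 list too. Such sites may therefore overlap a weaker REX1 peak. With −log10 q of at least 5 in both RNF12 lists and the REX1 list whole, it was 49.8%. It was 64.7% of sites over 10 kb from a TSS and 32.9% with an overlap of 50% of both peaks. Summits found more than once made up 49.7% (48.7% to 50.6%) of the peaks in all 3 lists and 5.43% (5.19% to 5.69%) of those in the RNF12 WT list alone. Soft-masked letters, the lower case of the reference, touched the summit window of 59.8% (58.9% to 60.7%) of sites, 58.2% of peaks in all 3 lists and 33.5% of peaks in the RNF12 WT list alone. On both measures the sites were nearer to the peaks in all 3 lists than to those in the RNF12 WT list alone. How reads that fit several places were handled is not given in the sources used here, and their part in these shares was not tested.

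**Figure D1:**
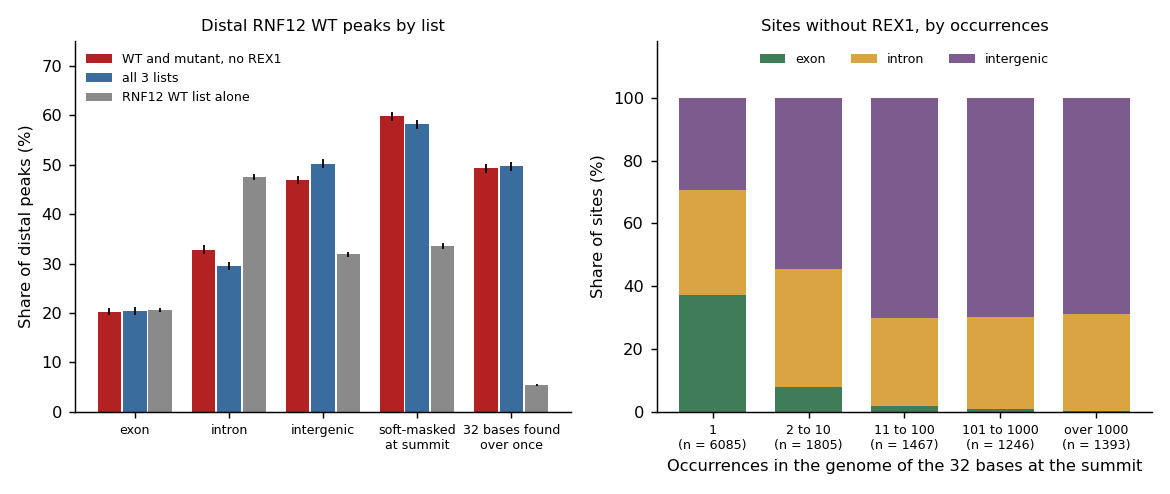
Left, share (%) of distal RNF12 WT peaks by annotation, soft-masking and repeated summit sequence in the sites without REX1, the peaks in all 3 lists and the peaks in the RNF12 WT list alone; bars are shares and whiskers 95% Wilson intervals. Right, annotation (%) of the sites by how often the 32 bases at the summit occur, where the exonic part falls from 37.0% at 1 occurrence to 0.215% above 1000.

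Place and repeat content moved together. Of sites found once, 37.0% (35.8% to 38.3%) were exonic and 29.2% intergenic, whereas of sites found more than once 3.01% (2.61% to 3.48%) were exonic and 65.1% intergenic. Counted over peaks found once, exons held 38.4% (37.1% to 39.7%) of the 5490 peaks in all 3 lists and 21.2% (20.7% to 21.7%) of the 28993 peaks found in that of RNF12 WT alone. With repeated summits set aside, the intervals of the sites and of the peaks in all 3 lists overlapped, and the share of RNF12 WT alone was lower than both.

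Exonic sites were mainly coding. The exonic share moved with the limits of the rule, to 7.62% of sites over 10 kb from a TSS. Among the 20000 strongest peaks of each list, which shortens the REX1 list too, it was 7.71% of sites. With −log10 q of at least 5 in both RNF12 lists and the REX1 list whole, it was 19.2%. Of the 2432, 78.4% (76.7% to 80.0%) had the summit in coding sequence, 13.5% in untranslated sequence alone and 8.06% in other exons, and 2254 had a summit found once. Their median distance was 3955 bp to the nearest TSS and 1861 bp to the nearest REX1 peak. The corresponding medians were 9908 bp and 6222 bp in introns and 21772 bp and 15034 bp between genes.

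Seen over all sites, the median distance to a TSS was 11673 bp (quartiles 4323 and 31584 bp), and 17.6% of summits lay 1 to 3 kb from one. The nearest REX1 peak was a median of 6762 bp away (1178 to 27941 bp). A REX1 peak began within 1 kb of the summit at 23.0% (22.2% to 23.7%) of sites and was over 100 kb away at 6.24% (5.82% to 6.69%), so the absence of an overlapping REX1 peak left many sites with one nearby. The median was 5211 bp for distal peaks in the RNF12 WT list alone, with 16.7% within 1 kb and 1.64% over 100 kb away. Sites found more than once were the farther ones, at a median of 18703 bp against 2881 bp for sites found once.

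The limit of 1 kb was met narrowly at a Gabre exon on chromosome X and a Hectd4 intron on chromosome 5, both with the summit 1001 bp from a TSS. Their RNF12 WT fold enrichments were 2.8 and 3.8, and the mutant ones 3.54 and 7.35. Just under the limit, both at 1000 bp, were peaks in Pla2g6, a phospholipase gene (5.35 and 5.79), and in Zfp638 (4.89 and 7.70).

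The fold enrichment, the authors' ratio of the signal at a summit to the control, had opposite trends with sequence repetition in the 2 RNF12 lists. The median over the sites was 4.15 (quartiles 3.30 and 5.13) for RNF12 WT and 7.35 (5.41 and 12.3) for the mutant. Values of different lists are not compared as sizes, because which control stood behind each list is not given in the sources used here, and ranks within a list are used instead. Counted from the strongest peak, the median site stood at 65.7% of the RNF12 WT list and at 44.0% of the mutant list. The sites therefore sat in the weaker part of the WT list and nearer the middle of the mutant list. The WT place was not particular to the sites, as distal peaks in all 3 lists had a median of 64.3%. In the mutant list the median was 25.8% over the 50344 RNF12 WT peaks with a mutant peak. It was 35.6% for peaks within 1 kb of a TSS that otherwise met the rule. The mutant peaks at the sites thus stood lower in their list than those of either set.

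Split by occurrences of the summit sequence, the median RNF12 WT fold enrichment was 4.70 for sites found once, 3.83 at 2 to 10 occurrences, 3.46 at 11 to 100, 3.58 above 100 and up to 1000, and 3.45 above 1000. Over the same classes the median mutant fold enrichment was 5.84, 8.32, 10.8, 13.8 and 14.5. Mutant values rose at each step while the WT values were highest at sites found once. In ranks, sites found once had medians of 48.3% in the WT list and 64.3% in the mutant list, and sites found more than once 80.9% and 20.3%, so the order of the classes was reversed between the lists.

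**Figure D2:**
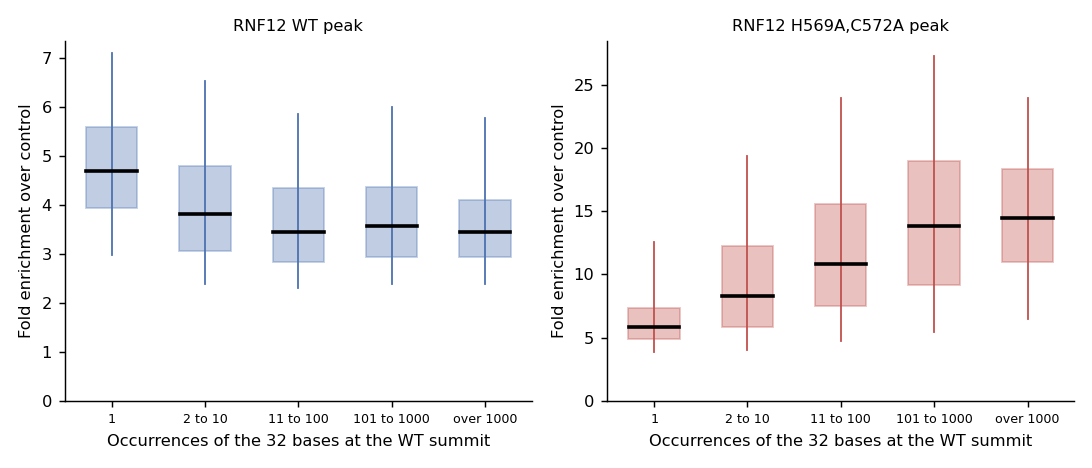
Fold enrichment over control at the sites, in the RNF12 WT peak (left) and the overlapping RNF12 H569A,C572A peak (right), by how often the 32 bases at the WT summit occur in the genome. Black lines are medians, boxes quartiles and whiskers the 5th and 95th percentiles over sites; WT medians run from 4.70 to 3.45 and mutant medians from 5.84 to 14.5, and the vertical scales belong to different lists.

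Across the 11996 sites, Spearman's rho between occurrences and mutant fold enrichment was 0.602, and between occurrences and WT fold enrichment -0.407. Within the 5911 sites found more than once these were 0.386 and -0.100. Between the WT and mutant fold enrichments it was -0.241 over all sites, 0.0308 over the 6085 found once and -0.0218 over the 5911 found more than once. Over the 10905 distal peaks in all 3 lists rho was 0.736 between occurrences and mutant fold enrichment, -0.402 between occurrences and WT fold enrichment and -0.222 between both enrichments, so the opposite trends were found there too. Within either class of sites rho between the WT and mutant fold enrichments was small. Only peaks called in both lists entered, which restricts both ranges, so this does not show that the strengths are unrelated. These values describe points that share the same pair of libraries, and no p-value is given.

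The mutant peaks were also wider where sequence recurred. RNF12 WT peaks at the sites were a median of 125 bp wide and the mutant peaks 191 bp. At sites found once the mutant median was 133 bp and at sites found more than once 347 bp, with WT medians of 130 and 121 bp. The WT peak lay wholly inside the mutant peak at 22.7% of sites found once and 80.1% of those found more than once. A mutant peak could hold several sites. The 11996 sites fell on 11219 mutant peaks, 1427 sites shared theirs with another site, and 1 mutant peak held 8.

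Summits of both RNF12 forms fell close together, as overlap of narrow peaks, which the rule requires, allows little else. The median distance between the WT and mutant summits was 41 bp (interval of the median 40 to 42 bp), with 32.6% within 20 bp, 56.1% within 50 bp and 12.5% over 200 bp apart. The rule used the overlap of the peaks, which bounds this distance, and not the summits. Requiring an overlap of 50% of both peaks gave 24 bp and summits within 100 bp gave 25 bp, limits that themselves shorten the distance. The median was 38 bp at sites found once and 45 bp at sites found more than once. It was 51 bp for distal peaks in all 3 lists and 73 bp for peaks within 1 kb of a TSS that otherwise met the rule. Peaks of those sets were wider, with WT and mutant medians of 152 and 358 bp in all 3 lists. Near a TSS they were 143 and 279 bp, so the shorter distance at the sites is not read as closer binding.

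Alignment of 100 bases to either side of the summits of the sites, the peaks in all 3 lists and the peaks in the RNF12 WT list alone joined alike sequences into groups, at 80% identity over at least 100 bases, each member being joined to at least 1 other. There were 65 groups of 10 or more peaks, and 44.5% (43.7% to 45.4%) of the sites belonged to 1 of them. Groups with 75 or more sites numbered 8 and held 4673 sites (39.0%). A further 1251 sites had a summit found more than once and belonged to no group of 10.

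Group 1 was the largest, with 3530 sites (29.4%, 28.6% to 30.2%), 4526 peaks in all 3 lists (41.5% of that set) and 320 peaks in the RNF12 WT list alone (1.04%). Its sites were on all 20 chromosomes, 75.2% between genes and 0.142% in exons, and their summit sequence had a median of 157 occurrences. Median fold enrichments were 3.45 for RNF12 WT and 14.2 for the mutant, or 83.8% and 12.6% of the way down the respective lists. In the peaks of this group that also carried REX1 the WT median was close by, at 3.61, and the mutant median higher, at 23.5. The group thus had members both with and without a REX1 peak. Members were joined through one another, so any pair of them need not be alike.

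The share with the string of the RNF12 logo differed between these subsets. That string, read from the logo in the paper, which was drawn from RNF12 peaks of this study, and searched on both strands with 1 mismatch allowed, occurred within 50 bp of the WT summit at 20.3% of group 1 sites and at 73.5% of group 1 peaks in all 3 lists. Within 300 bp of the summit it occurred at 38.6% (37.0% to 40.3%) and 95.2% (94.5% to 95.8%). Where it was present in that window, its middle lay a median of 41 bp from the summit at the sites and 20 bp at the peaks in all 3 lists. Most of the group 1 sites thus lacked the string in that window, and most of the group 1 peaks with REX1 had it.

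The other large groups differed from one another. Group 2, the B1 sequence printed above, had 277 sites, 60.3% of them in introns, with median fold enrichments of 5.07 for RNF12 WT and 6.82 for the mutant, and 15 peaks in all 3 lists against 413 in the RNF12 WT list alone. Group 3 had 227 sites, 141 on chromosome 5 and 84 on chromosome 7, with medians of 3.30 and 6.10. Group 4 had 189 sites (5.18 and 9.80) with summits a median of 8 bp apart. Group 5 had 159 sites (3.15 and 21.2), the highest mutant median of the 8 groups, with 24 peaks in all 3 lists and 1 in the WT list alone. Groups 1, 5 and 7 combined low WT with high mutant medians, whereas groups 3 and 8 had low WT medians without high mutant ones, and groups 2, 4 and 6 had the higher WT medians.

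Group 6 had 129 sites (4.53 and 5.60), of which 40.3% had a summit found more than once, the lowest share of the 8. Group 7 had 84 sites (3.59 and 17.3) beside 310 peaks in all 3 lists, and group 8 had 78 sites (3.49 and 7.49). The share of a group's peaks that lacked REX1 and carried the mutant was 86.4% in group 5, 82.1% in group 8, 70.5% in group 3, 66.8% in group 4, 42.1% in group 1, 39.3% in group 2, 27.1% in group 6 and 21.2% in group 7. Over all aligned peaks it was 11996 of 53560.

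**Figure D3:**
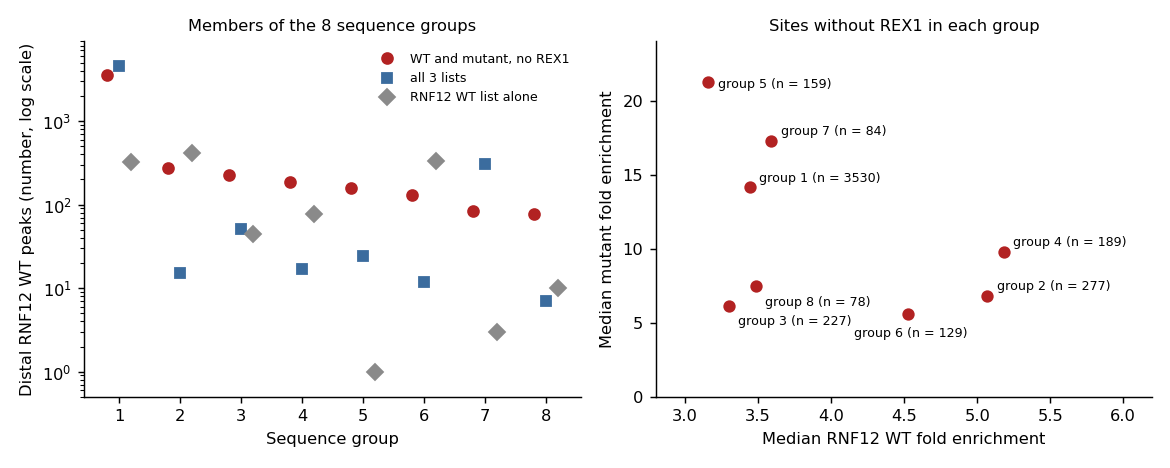
Left, number (log scale) of distal RNF12 WT peaks of each set in the 8 sequence groups with at least 75 sites. Right, median RNF12 WT against median mutant fold enrichment of the sites of each group, 1 point a group with its number of sites; group 5 lies highest, at 21.2 for the mutant and 3.15 for RNF12 WT.

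The 10 sites strongest in both lists at once all had a summit found more than once, from 2 to 1251 times. Ranked by the mean of their fold enrichment ranks, the first lay at chr16:25190977-25191108, 95784 bp from the nearest TSS, that of Tprg, and 131229 bp from a REX1 peak. Its fold enrichment was 8.89 (−log10 q of 17.8) for RNF12 WT and 35.5 (97.7) for the mutant, with summits 5 bp apart. It carried the group 1 sequence printed above.

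A pair of sites, ranked 2 and 7, lay in the tandem array near Lars2, the mitochondrial leucyl-tRNA synthetase gene. The site at chr9:123350908-123351263 had a WT fold enrichment of 8.95 and the one at chr9:123351312-123351476 of 7.85, and a single mutant peak (28.2) overlapped both. The other 5 group 1 sites among the 10 lay in an intron of Gm29536 on chromosome 1 (8.06 for WT and 29.5 for the mutant) and near Gm45211 (7.84 and 31.5), 1700018B24Rik (7.97 and 27.6), Gm8991 (7.67 and 30.7) and Gm38590 (7.52 and 27.5). The remaining pair were the Jazf1 intron array (10.4 and 21), in the gene of a zinc-finger cofactor, and a group 4 site at chr17:81967082-81967193 (9.39 and 19.1). None of the 10 lay in an exon, and the nearest REX1 peak was at least 15461 bp away.

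Ranked by RNF12 WT alone, other sites led. The highest of all was chr19:37196928-37197148, in an intron of Cpeb3, which encodes an RNA-binding regulator of translation, with a WT fold enrichment of 13.4 and a mutant one of 14.7. It lay 1076 bp from a TSS, and the array printed above fills its window. An intergenic site 9480 bp from the TSS of Hes7, a repressor of the somite segmentation clock, followed with 12.7 for WT and 8.28 for the mutant. A site in an intron of 6330411D24Rik had 11.4 and 12.9. Further intergenic sites stood 1182 bp from a TSS of Nrp1, the semaphorin and VEGF co-receptor (10.4 and 9.07), and near Gm46209 (10.1 and 14.7, a group 4 sequence).

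The strongest exonic sites by RNF12 WT were all coding and found once. They lay in Vwa5b1 (chr4:138578536-138578774, 11.2 for WT and 3.63 for the mutant), in Gabbr1, a subunit of the GABA-B receptor (10.5 and 5.85), and in Nr3c2, the mineralocorticoid receptor (10.4 and 7.0). The Vwa5b1 site held rank 0.260% in the WT list and 97.4% in the mutant list, so a peak near the top of the WT list overlapped one near the foot of the mutant list.

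Among sites found once with no soft-masked base, the strongest in both lists was a coding exon of Pcsk1n, which encodes the proprotein convertase inhibitor proSAAS, at chrX:7922027-7922700 (7.39 and 24.7). An intronic site of Unc45b, a myosin chaperone gene, had 7.23 and 25.1, the Ano8 exon site 7.15 and 17.9, and the Fbrsl1 exon site 7.08 and 17.2. On chromosome 18, a site 180710 bp from the TSS of Gata6, an endoderm transcription factor, had 7.85 and 15.4, with a REX1 peak 136 bp from its summit. These sites were named after their values were seen.

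In all, 6369 sites lay in 4124 genes, 2886 of which held 1 site and 104 of which held 5 or more. Where genes overlap, the shortest protein-coding gene was taken. Counts per gene are given beside all distal RNF12 WT peaks of that gene and rank no excess. Over all distal RNF12 WT peaks, 11996 of 59688 were sites, a higher share than in Gm20388, Gse1 or Camta1. Gm20388, a locus of 4435 kb, held 16 sites of 212 such peaks, Gse1 16 of 93 and Camta1 15 of 86. Tnrc18 held 13 of 31, Ulk4 13 of 35 and Hspg2 12 of 40. Bcor held 11 of 38, Ryr1 11 of 35 and the antisense gene Gm16090 11 of 12, and Plec 10 of 24 and Shank1 10 of 20. The kind of site differed from gene to gene. In Hspg2, the gene of the matrix protein perlecan, 10 of the 12 sites were exonic and none was found more than once. Plec, which encodes the cytoskeletal linker plectin, had 8 exonic sites of 10, and Shank1, a postsynaptic scaffold gene, 7 of 10, none found more than once in either. In Ulk4, by contrast, none was exonic and 9 of 13 were found more than once. Bcor, the gene of a Polycomb-associated corepressor, held 11 sites found once, 2 of them exonic.

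Sites also came in runs. With gaps of at most 10 kb there were 67 runs of 5 or more sites, holding 468 sites. The longest lay at chr6:114518683-114614005 around Atg7 with 35 sites over 95.3 kb, of which 97.1% were found more than once, followed by 24 and 18 sites near Gm20586 on chromosome 8. Runs of sites found once lay in Plec (10 sites over 21.5 kb), Shank1 (9 over 22.5 kb) and Srcin1 (7 over 20.2 kb).

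Sites were assigned to gene lists by the gene that held the summit, or otherwise by the nearest TSS. Of 20 transcription factor genes of the naive pluripotency network, 3 held 5 sites (0.0417% of sites, against 0.0787% of all 59688 distal RNF12 WT peaks), the strongest 1453 bp from a TSS of Nr5a2, an orphan nuclear receptor (6.19 for WT and 5.60 for the mutant). The 11 genes of the X-inactivation centre had no site, which allows up to 0.0320% of sites by the Wilson interval, and 7 distal RNF12 WT peaks.

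The distal RNF12 WT peaks, of which the sites are part, serve as background for each list. FGF signalling and primed-state genes had 21 sites at 9 of 20 genes (0.175% against 0.251%), led by an intronic site of Etv5, an ETS factor downstream of FGF (7.11 and 5.60). TGF-beta, Nodal and SMAD genes had 27 sites at 13 of 31 genes (0.225% against 0.218%), led by a site 30815 bp from the TSS of the inhibitory SMAD gene Smad7 (9.39 and 4.70). Neural genes had 16 sites at 6 of 16 genes (0.133% against 0.122%), with the strongest near Sox11 (6.74 and 6.30). Imprinted genes had 19 sites at 10 of 33 genes (0.158% against 0.147%), with the strongest in an intron of Mest (7.68 and 4.87).

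The longest lists, of Zfp and developmental transcription factor genes, had the most sites in number. Zfp-type zinc-finger genes had 147 sites at 105 of 452 genes (1.23%, 1.04% to 1.44%, against 1.14%), the strongest a group 2 site in an intron of Zfp800 (8.95 and 9.80). Developmental transcription factor families had 104 sites at 56 of 156 genes (0.867% against 0.833%), led by a site near Foxn2 (8.71 and 8.76). Polycomb genes had 25 sites at 6 of 27 genes (0.208% against 0.186%). Clustered protocadherin genes, which encode neuronal adhesion proteins, had 14 sites, all exonic, at 12 of 57 genes (0.117% against 0.127%), led by Pcdha3 (9.32 and 5.60).

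Genes tied to protein quality control were listed because the RNF12 cells had received MG132. Heat-shock and DnaJ genes had 18 sites at 13 of 88 genes (0.150% against 0.183%), led by an intron of Dnajc22 (6.49 and 9.65). Proteasome subunit genes had 6 sites at 5 of 54 genes (0.0500% against 0.0553%), led by a site near Psmb7 (6.90 and 4.20). Replication-dependent histone genes had 1 site (0.00834% against 0.0101%), near Hist1h4m (4.53 and 13.5). In each of the lists the 95% interval of the share overlapped that of the distal RNF12 WT peaks.

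Among annotated features of RefSeq, 24 sites (0.20%) lay within 500 bp of 1 of 403 tRNA genes, against 0.330% of peaks in all 3 lists and 0.0718% of peaks in the RNF12 WT list alone. Curated enhancers overlapped 33 site summits (0.275%, 0.196% to 0.386%), against 0.55% and 0.333%.

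Base composition placed the sites between the other sets. Around the summit the median GC content was 59.8%, against 61.8% in peaks in all 3 lists and 55.5% in the RNF12 WT list alone, and the observed-to-expected CpG ratio was 0.455 against 0.573 and 0.255. Windows with at least 50% GC and a ratio of at least 0.6 made up 22.3% (21.5% to 23.0%) of sites, 43.1% of peaks in all 3 lists and 2.57% of peaks of RNF12 WT alone. The order was kept among peaks found once, with CpG ratios of 0.409, 0.556 and 0.257.

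Fixed strings were looked for on either strand up to 50 bp from the summit and in windows of like width 250 to 350 bp away. The RNF12 logo string occurred at 734 sites (6.12%, 5.70% to 6.56%) and in 1.99% of flanks. It was at 30.6% of peaks in all 3 lists (12.4% of flanks), 0.359% of peaks in the RNF12 WT list alone and 4.48% of all RNF12 WT peaks. Of the 734 sites 725 had a soft-masked base in the window, and among the 4111 sites found once with no such base the string was at 0.219% of summits and 0.146% of flanks. In the corresponding peaks of all 3 lists it was at 0.170% and 0.182%, so the contrast with those peaks was not seen there. Among the 20000 strongest peaks of each list its share of sites was 37.2%. That limit shortens the REX1 list too, so such sites may overlap a weaker REX1 peak. With −log10 q of at least 5 in both RNF12 lists and the REX1 list whole, the share was 7.60%.

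REX1-type strings were not absent from sites without REX1. The string ATGGC followed by G or T, then A, C or G, then C, read from the REX1 logo, was at 4.02% (3.68% to 4.38%) of sites and 2.45% of flanks, against 10.9% and 11.6% in peaks in all 3 lists and 2.79% and 1.64% in the RNF12 WT list alone. The YY1 core AAGATGGC, which overlaps it, was at 2.54% of sites and 1.60% of flanks. Over sites found once with no soft-masked base the shares fell to 2.07% against 1.89% and to 0.341% against 0.535%. The REX1 string in the corresponding peaks of all 3 lists was at 5.10% against 1.98% and in those of RNF12 WT alone at 2.81% against 1.69%. The REX1 logo in the paper was drawn from REX1 peaks, which also divide the sites from the peaks in all 3 lists. The difference between these sets is therefore not independent of the rule.

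The KLF/SP core is GGG followed by C or T, then G, then G or T, then GGC. In sites with a soft-masked base it was at 5.66% (5.15% to 6.22%) of summits and 0.822% of flanks, and at 4.61% of all sites. It occurred at 92.5% of group 3 sites and 66.7% of group 4 sites, and at 0.113% of group 1 sites. The NRF1 core GCGCATGC was at 0.655% of soft-masked summits and 0.0836% of flanks, and at 0.851% and 0.353% in sites found once with no soft-masked base. The NFY core CCAAT was at 18.1% of soft-masked summits and 15.1% of flanks, and at 30.1% of group 1 sites.

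E-box and ZIC-like strings stood above the flanks in sites found once with no soft-masked base. The E-box CAGCTG was at 15.4% (14.4% to 16.6%) of these sites and 6.42% of flanks, the ZIC-like core CAGCAGG at 9.58% (8.72% to 10.5%) and 4.78%, and the E-box CACGTG at 4.01% (3.46% to 4.66%) and 1.95%. The same strings were at 13.0%, 8.55% and 4.35% of the corresponding peaks in all 3 lists and at 15.0%, 9.88% and 3.19% of those in the RNF12 WT list alone, so they were not particular to the sites. The NFY core went the other way, at 6.35% of summits and 10.8% of flanks.

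**Figure D4:**
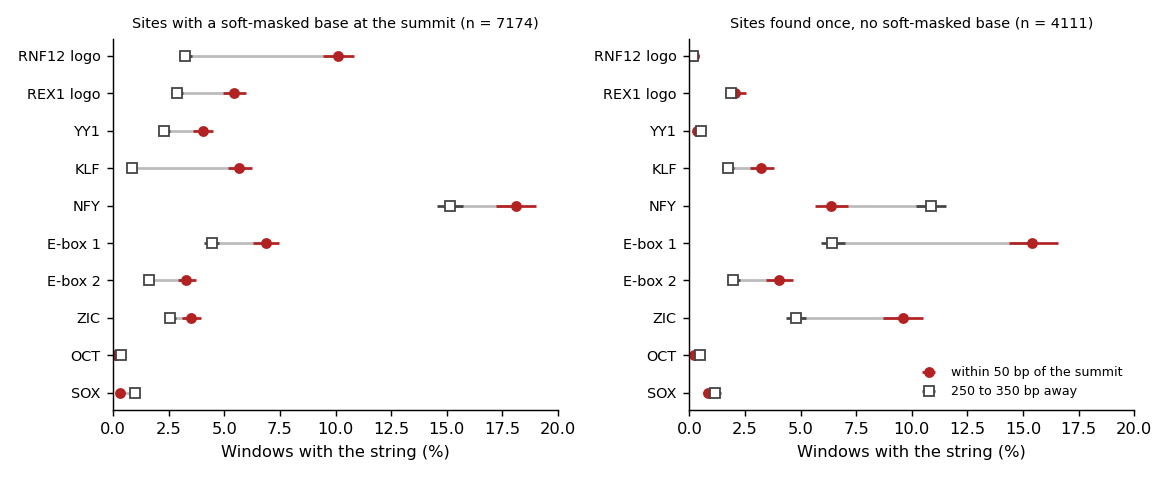
Share (%) of windows with each fixed string within 50 bp of the summit (filled circles) and 250 to 350 bp away (open squares), with 95% Wilson intervals, in sites with a soft-masked base (left) and in sites found once with none (right). E-box 1 is CAGCTG and E-box 2 is CACGTG; the RNF12 logo string is at 10.1% of summits on the left and 0.219% on the right, and E-box 1 at 6.86% and 15.4%.

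The remaining strings were rare at the sites or below the flanks. Over all sites the ETS core CCGGAAG was at 1.63% of summits and 0.663% of flanks, against 12.6% of summits in all 3 lists, and the NRF1 core GCGCATGC at 0.709% and 0.196%. Among peaks found once with no soft-masked base the ETS core was at 2.24% (1.83% to 2.74%) of sites and 2.45% (2.02% to 2.97%) of peaks in all 3 lists, which overlap. The octamer ATGCAAAT bound by OCT4-type factors was at 0.108% of summits and 0.413% of flanks, the SOX core ACAATGG at 0.542% and 1.06%, and the ESRRB half-site TCAAGGTCA at 0.150% and 0.217%. The AP-1 core TGANTCA (1.0% and 2.0%), the TEAD core GGAATG (2.42% and 4.56%) and the heat-shock element dyad GAANNTTC (0.567% and 2.01%) were also below their flanks. The CTCF core was at 0.133% and 0.0709%, the NF1 half-site at 0.984% and 0.725%, and the CEBP core TTGCGCAA at 1 site. The octamer, SOX, AP-1, TEAD and heat-shock strings were thus rarer at the summits than beside them. The same held for each over all RNF12 WT peaks, with the octamer at 0.125% and 0.363% and the heat-shock dyad at 0.849% and 2.07%. It was therefore not particular to the sites, and the base composition of the flanks was not measured. The ESRRB string was at 0.0973% of summits and 0.426% of flanks in sites found once with no soft-masked base, and at 0.195% and 0.112% in sites with such a base.

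A ranking of all 8-base words by the excess of summit over flank gave different leading words for all sites and for sites with no soft-masked base. Over all sites the first 5 were ACCAGAGG (11% of summits and 3.47% of flanks), GCCTGCCC (11% and 3.56%), CCCCACGG (8.31% and 2.62%), CAGGTGTC (4.08% and 0.538%) and GGAGTCCC (9.20% and 3.23%). In the 4822 sites with no soft-masked base the first 5 were CCAGCAGC (3.73% and 1.08%), CAGCTGCC (3.57% and 1.06%), CCAGCTGC (3.73% and 1.15%), GCAGCAGC (4.65% and 1.70%) and CAGCCAGC (3.63% and 1.13%). Of the latter words CAGCTGCC and CCAGCTGC contain CAGCTG, and CCAGCAGC and GCAGCAGC contain CAGCAG.

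The sites were not spread evenly over chromosomes. On X, 704 of 3293 RNF12 WT peaks were sites (21.4%, 20.0% to 22.8%), against 9.76% on chromosome 11 to 15.2% on chromosome 3 among the autosomes. Repeated sequence made up most of the X sites. Of the X sites 80.1% had a summit found more than once and 438 belonged to group 1, and sites found once made up 4.25% of the RNF12 WT peaks on X against 4.44% to 7.30% on autosomes. Sites on X were exonic in 4.83% of cases and had a median mutant fold enrichment of 11.7, against 6.24 to 9.99 on the autosomes. On each of the 20 chromosomes the share of summits found more than once was higher in the sites, at 26.6% to 80.1%, than in the peaks of the RNF12 WT list alone, at 3.55% to 20.4%. In the distal peaks of all 3 lists it was 23.7% to 75.3%, so it was not particular to the sites.

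**Figure D5:**
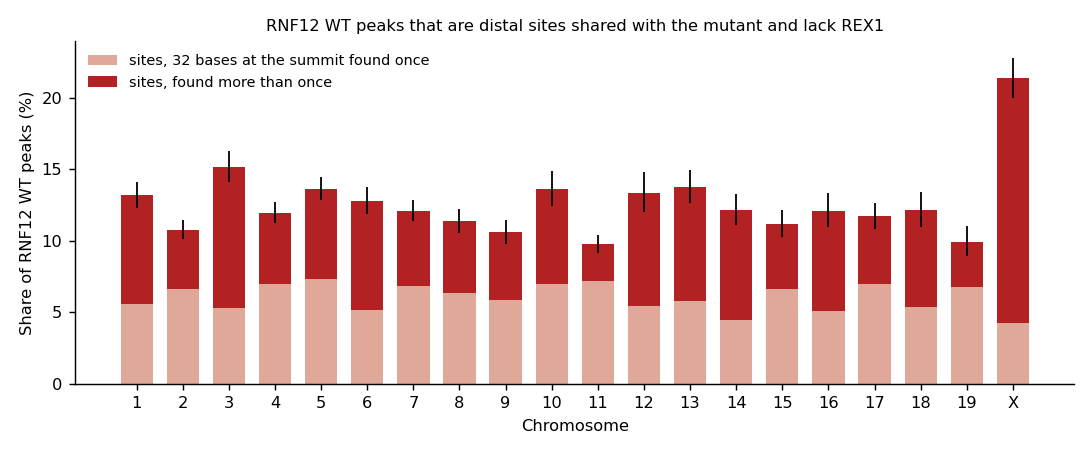
Share (%) of the RNF12 WT peaks of each chromosome that were distal sites shared with the mutant and without REX1, divided by whether the 32 bases at the summit were found once or more than once; whiskers are 95% Wilson intervals of the whole bar. X stands highest at 21.4%, and its lower part, sites found once, is 4.25%.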

How the data were processed

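Peak lists of 3 chromatin immunoprecipitation libraries (REX1, RNF12 WT, RNF12 H569A,C572A) were analysed, 1 library per list. Control libraries were not used here. As the authors state, reads were trimmed (Trim Galore 0.6.7), aligned (Bowtie2 2.5.0) to mm10 with strain differences masked, sorted by allele with SNPsplit and merged (SAMtools 1.10), and peaks were called with MACS2 2.2.7.1 in narrow mode. Each deposited row holds a position, a summit, a fold enrichment (a ratio to the control), −log10 of the p-value and of the q-value, and a score, which was not used. The smallest deposited −log10 q was 1.31 in each list (0.05 as a q-value). No read totals are in the lists, so depth is unknown. Ranks were computed within a list. Fold enrichments of the RNF12 lists were set side by side and rank-correlated, but their sizes were not compared.

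Summits were placed on GENCODE release M21 and GRCm38. Soft-masking is that of the RefSeq sequence, its kind not being stated. Occurrences of the 32 bases at a summit were counted exactly on both strands. Summit sequences were grouped with BLAST 2.17.0 (megablast, word size 20, joined through any member). Where several mutant peaks overlapped, the one with the largest overlap was taken. Python 3.11.15, numpy 2.4.6, pandas 2.3.3, scipy 1.17.1 and matplotlib 3.10.9 were used. The overlap, distance, motif and counting steps were tested on simulated data with known answers.

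The members, gene lists and strings were chosen with earlier results of these data known. Named sites are the 10 with the lowest mean rank in both RNF12 lists, the 3 highest by RNF12 WT in exons, introns and intergenic DNA, the highest of each gene list, the 2 on either side of the 1 kb limit, and the genes with most sites (ties included). Some items that this rule names are not reported here. Sequences printed are 3 of those 10, the leading members of 3 sequence groups and 2 sites found once, the last 5 chosen after their values were seen. Leading words are the first 5 of each ranking by the standardised difference of summit and flank shares. Alternatives to the threshold, overlap, distance, annotation and window were computed. Peaks on Y and on scaffolds were left out. With 1 library per list no test was made, and peaks were not treated as replicates.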

Additional observations from a re-analysis of the deposited data

Results flagged for a closer look

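Outside the chromosomes of the rule, 103 of the 238 RNF12 WT peaks on chromosome Y met its other parts, with a mutant peak, no REX1 peak and a summit over 1 kb from a TSS, although the cells are labelled female. These peaks entered no count above.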

How the results depend on the processing

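Of 76 alternatives, 24 differed from the value given by less than its counting interval, or by less than 1.5 times for the number of sites, and 52 by more. The alternatives were run on 6 values of the sites alone, and none was run for the comparisons with other sets, with flanks or between the RNF12 lists. The limits of these data are 1 library per list, an unknown depth, and no given handling of reads that fit several places. No paired analysis was possible because each list stands on 1 library and no result comes from a test. The number of sites, 11996, became 5052 with −log10 q of at least 5 in all 3 lists, 3709 with that limit in both RNF12 lists only, 1168 with the 20000 strongest peaks of each list, 7723 with an overlap of 50% of both peaks, and 6480 over 10 kb from a TSS. The exonic share, 20.3%, became 19.2% with the limit of 5 in both RNF12 lists, 7.71% with the 20000 strongest, 26.5% with 50% overlap, 22.9% with summits within 100 bp, 16.6% with no REX1 peak within 1 kb, 15.0% over 3 kb and 7.62% over 10 kb from a TSS, and 22.5% with protein-coding starts only. The soft-masked share, 59.8%, became 57.5% with the limit of 5 in all lists, 78.2% with the 20000 strongest, 47.3% with 50% overlap, 55.0% with summits within 100 bp, 64.8% with no REX1 peak within 1 kb, 65.0% over 3 kb, 73.7% over 10 kb, 58.3% with protein-coding starts and 68.6% in windows of 100 bp to either side. The share found more than once, 49.3%, whose alternatives were chosen after seeing the data, ranged from 32.9% with 50% overlap to 79.3% with the 20000 strongest, and was 64.7% over 10 kb from a TSS. The share with the RNF12 logo string, 6.12%, became 11.3% with the limit of 5 in all lists, 7.60% with it in both RNF12 lists, 37.2% with the 20000 strongest, 3.83% with 50% overlap, 7.98% with summits within 100 bp, 5.26% with no REX1 peak within 1 kb, 7.1% over 3 kb, 9.03% over 10 kb, 10.6% in windows of 100 bp to either side, 0.187% in sites with no soft-masked base and 4.55% with no mismatch. The median distance between summits, 41 bp, became 34 bp with the limit of 5 in all lists, 32 bp with it in both RNF12 lists, 37 bp with the 20000 strongest, 24 bp with 50% overlap, 25 bp with summits within 100 bp and 38 bp with no REX1 peak within 1 kb. Restriction to sites found once, chosen after seeing the data, gave 6085 sites, 37.0% exonic, 32.4% soft-masked, 1.53% with the RNF12 logo string and a median of 38 bp between summits. Limits set on all 3 lists, among them the 20000 strongest, shorten the REX1 list too. Sites under them may overlap a REX1 peak that was left out. Except where the alternative takes fewer peaks by its own construction, the cause was not tested.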
